A study of Mus musculus with 6 samples.

Results

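The genes described are BMP ligands and direct targets of BMP signalling: the ligand genes *Bmp4*, *Bmp2* and *Bmp7*, and the target genes *Id1*, *Id2*, *Id3*, *Msx1*, *Msx2*, *Smad6* and *Bambi*. They were chosen by name, and all 10 were among the 15266 genes of the deposited table. All 10 also passed the filter on low counts, which kept 12891 genes. mRNA-seq was performed on embryoid bodies (EBs), aggregates in which embryonic stem cells differentiate in a way that resembles gastrulation. The EBs were collected on day 4 of culture in medium with serum and without LIF, and both lines derive from W9.5 mouse embryonic stem cells. The Evx1Δfs line (Clone 14) carries small frameshift deletions in both alleles of the homeodomain-coding exon of *Evx1*, so that the locus is still transcribed but functional EVX1 is lost. The Del3 line carries a deletion of 2.6 kb that takes out the promoter shared by *Evx1* and its antisense lncRNA *Evx1as*, a further promoter specific to an *Evx1as* isoform and neighbouring exon sequence, and both transcripts are strongly reduced. There were 3 replicates per line, from side-by-side differentiations set up on different days. Evx1Δfs is 1 clone picked after CRISPR-Cas9 editing, and the Del3 labels give no clone number. Effects of genotype and of clone cannot be told apart, and neither group is wild type, since functional EVX1 is missing from both.

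BMPs are secreted ligands of the TGFβ superfamily. They bind type I and type II receptors, which phosphorylate SMAD1, SMAD5 and SMAD9, and these enter the nucleus with SMAD4 and act on target genes. In the gastrulating embryo BMP4 comes from the extraembryonic ectoderm and favours posterior streak fates and mesoderm. The *Id* genes encode helix-loop-helix proteins that lack a DNA-binding domain and hold back bHLH factors, the *Msx* genes encode homeobox repressors, and *Smad6* and *Bambi* encode inhibitors that feed back on the pathway. The question put to the data is whether the ligands and the readout of the pathway differ between EBs with *Evx1as* and EBs in which it is strongly reduced, when functional EVX1 is lost in both.

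The deposited values are counts divided by a size factor per library, here called normalized counts, and the reads behind them could be recovered. The libraries held 9024579 to 15699124 reads on listed genes. In both lines replicate 1 was the deepest library. *Evx1* had 2582 to 4023 reads in the Evx1Δfs libraries and 28 to 48 in the Del3 libraries, and *Evx1as*, listed as 5730457N03Rik, had 571 to 879 and 21 to 30. The strong reduction of both transcripts thus held in every library labelled Del3. Gene counts do not show a frameshift, so the Evx1Δfs label was not checked in this way. Markers of the primitive streak and nascent mesoderm were all listed (8 of 8, with a summed level of 6605 to 9772 normalized counts per library), as were those of pluripotency (8 of 8, 15578 to 26121). Single genes weighed heavily in these sums, with *Eomes* at a mean of 3303 in the streak list and *Dnmt3b* at 11978 in the pluripotency list. The 8 markers of visceral endoderm summed to 404 in Del3 replicate 1 and to only 176 to 221 in the other libraries. These EBs are mixtures, and in bulk RNA fewer cells that express a gene cannot be told apart from less of its RNA per cell.

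The 250 bases before the start site of *Bmp4*, *Id2*, *Smad6* and *Msx1* are shown because *Smad6* with *Msx1*, and *Bmp4* with *Id2*, were among the 3 pairs of members whose values lay closest over the libraries (distances below the sequences). They are RefSeq promoter windows of GRCm38.p6, and each matched 1 place on its chromosome in NCBIM37, the assembly known as mm9 to which the reads had been mapped. *Bmp4* lies at chr14:47010345-47010594, *Id2* at chr12:25780958-25781207, *Smad6* at chr9:63869867-63870116 and *Msx1* at chr5:38215825-38216074, all on the minus strand. Capitals mark letters to which SMAD proteins can bind, searched on either strand. The first motif searched was GGCGCC, which reads the same on the opposite strand. The second was GGAGCC, with the opposite strand read as GGCTCC, and the third was CAGAC, read as GTCTG on the opposite strand. No match overlapped another in these windows.
Bmp4: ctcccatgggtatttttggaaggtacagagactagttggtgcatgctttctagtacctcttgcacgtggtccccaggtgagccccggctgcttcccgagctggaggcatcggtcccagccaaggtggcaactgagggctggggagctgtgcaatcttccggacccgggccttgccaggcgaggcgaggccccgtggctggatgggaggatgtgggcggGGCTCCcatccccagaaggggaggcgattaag
Id2: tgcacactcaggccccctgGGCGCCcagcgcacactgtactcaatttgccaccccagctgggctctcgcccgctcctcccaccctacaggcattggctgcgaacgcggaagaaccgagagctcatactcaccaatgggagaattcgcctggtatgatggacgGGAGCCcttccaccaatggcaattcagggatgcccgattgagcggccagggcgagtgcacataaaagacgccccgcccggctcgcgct
Smad6: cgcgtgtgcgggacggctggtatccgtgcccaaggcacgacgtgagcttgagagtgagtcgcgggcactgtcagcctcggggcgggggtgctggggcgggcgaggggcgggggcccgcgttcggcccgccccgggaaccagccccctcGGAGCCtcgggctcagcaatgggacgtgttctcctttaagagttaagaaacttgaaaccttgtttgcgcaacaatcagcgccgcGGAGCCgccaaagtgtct
Msx1: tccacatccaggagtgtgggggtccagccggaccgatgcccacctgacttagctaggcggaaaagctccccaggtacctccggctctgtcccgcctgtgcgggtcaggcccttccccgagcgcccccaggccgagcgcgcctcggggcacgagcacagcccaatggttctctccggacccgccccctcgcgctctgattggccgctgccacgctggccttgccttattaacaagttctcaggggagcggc

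*Id2* held the motifs GGCGCC and, further downstream, GGAGCC 1 time each, *Bmp4* held GGAGCC 1 time as its reverse complement, *Smad6* held GGAGCC 2 times, and the *Msx1* window held none of the 3 motifs. Among 32536 promoter windows of the same length, GGCGCC was present in 9.65%, GGAGCC in 26.1% and CAGAC in 42.2%, while 39.1% held none of them. The windows of *Id3* and *Msx2* were not printed, since their start sites lie 325 and 294 bases downstream of the gene start in the GENCODE annotation. They held GGAGCC 1 and 2 times, and that of *Id3* also held CAGAC 2 times. A match is a run of letters and not a measured binding site. Over the 6 libraries, the root mean square distance between centred log2 values was 0.12 for *Msx1* and *Smad6*, the smallest of all pairs of members, 0.12 also for *Bmp7* and *Msx1*, and 0.13 for *Bmp4* and *Id2*.

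By the mean level per length of exon, the targets *Id1*, *Id3*, *Msx1* and *Smad6* were the most abundant members, followed by the ligand *Bmp4*, while the ligands *Bmp7* and *Bmp2* were the rarest. On the scale of RPKM (reads scaled to exon length and to the library's total on listed genes), *Id1* was the highest member with 268 ± 78.5 in Evx1Δfs and 244 ± 87.8 in Del3 (SD, n = 3 each). *Id3* followed with 197 ± 46.9 and 215 ± 72.0, and *Msx1* with 120 ± 4.63 and 128 ± 18.9. The middle of the order was *Smad6* (mean over 6 libraries 51.5 RPKM), *Bmp4* (34.2) and *Msx2* (24.3), and the lowest were *Bambi* (14.5), *Id2* (13.2), *Bmp7* (10.6) and *Bmp2* (10.6). Only between *Msx1* and *Smad6* did the ranges of neighbours in this order stay apart, at 107 to 143 against 42.2 to 69.6 RPKM. *Id1* nevertheless lay above *Id3* in 6 of 6 libraries, and *Id3* above *Msx1*, *Bmp4* above *Msx2* and *Msx2* above *Bambi* in 6 of 6 as well. *Smad6* lay above *Bmp4* in 5 of 6 libraries and *Id2* above *Bmp7* in only 4 of 6. The order of *Bambi* over *Id2* held in 3 of 6 libraries, and that of *Bmp7* over *Bmp2* in 1 of 6, so neither of these last pairs differed beyond its spread. Among 12130 tested genes with a known exon length, *Id1* stood at the 98.3rd percentile of this level and *Bmp2* at the 61.3rd. The lengths are unions of all annotated exons, so the order depends on which isoforms are annotated. For *Id1* the union of 1160 bases covered the whole gene.

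**Figure D1:**
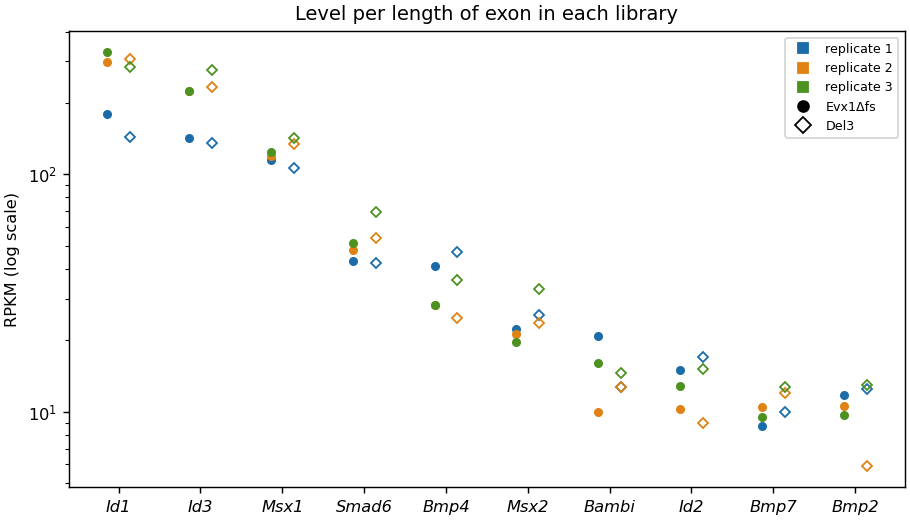
RPKM (log scale) of each member in each of the 6 libraries, with filled circles for Evx1Δfs, open diamonds for Del3 and 1 colour per replicate number, ordered by the mean. *Id1*, *Id3* and *Msx1* lie above 100 in every library, and the points of *Bmp2* and *Bmp7*, from 5.90 to 12.9, overlap.

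Among the ligands, *Bmp4* was the main transcript in both lines, and no ligand passed the test between them. *Bmp4* (chr14:47003195-47010344, minus strand), the ligand that drives posterior mesoderm, had 952, 663 and 704 normalized counts in Evx1Δfs replicates 1 to 3 and 1018, 622 and 838 in Del3 replicates 1 to 3. The lines overlapped, and replicate 1 was the highest library in both. Its log2 fold change in Del3 against Evx1Δfs was 0.09 (standard error 0.27, 95% interval -0.50 to 0.67, limma, adjusted p = 1.00). *Bmp4* made up 57.2% to 67.7% of the summed RPKM of these ligand genes, *Bmp2* 13.8% to 21.4% and *Bmp7* 14.1% to 28.2%.

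*Bmp2* (chr2:133377895-133388621, plus strand), a close relative of *Bmp4*, had 434, 397 and 390 normalized counts in Evx1Δfs and 431, 237 and 481 in Del3. The lowest and the highest of these libraries were both Del3, so the lines overlapped throughout. Its log2 fold change was -0.15 (standard error 0.30, interval -0.82 to 0.51), and it turned to 0.16 without Del3 replicate 2, the library with 237. *Bmp7* (chr2:172693513-172765822, minus strand), a ligand of another subgroup that can pair with BMP2 or BMP4, had 362, 447 and 430 normalized counts in Evx1Δfs and 391, 547 and 537 in Del3. Del3 was higher in each of the 3 same-numbered pairs, by 0.11, 0.29 and 0.32 on the log2 scale, but Del3 replicate 1 lay below Evx1Δfs replicates 2 and 3. The log2 fold change of *Bmp7* was 0.24 (standard error 0.25, interval -0.31 to 0.79, limma, adjusted p = 1.00).

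*Id1* and *Id3* were the most abundant targets, and they varied far more between replicates than between lines. *Id1* (chr2:152561987-152563146, plus strand), one of the most direct readouts of BMP signalling, had 2155, 3644 and 4292 normalized counts in Evx1Δfs and 1623, 4010 and 3428 in Del3. Replicate 1 was the lowest library in each line, and the other libraries of the lines were interleaved. The log2 fold change of *Id1* was -0.20 (standard error 0.37, interval -1.02 to 0.62), and without Del3 replicate 1 it was 0.20. *Id3* (chr4:135699412-135701670, plus strand), which overlaps with *Id1* in its known roles, had 2652, 4243 and 4532 normalized counts in Evx1Δfs and 2358, 4745 and 5158 in Del3. Here too both replicate 1 libraries lay below all others, and the log2 fold change was 0.06 (standard error 0.34, interval -0.68 to 0.80).

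*Id2* (chr12:25778666-25780957, minus strand) stood apart from its relatives in level. It had 198, 138 and 184 normalized counts in Evx1Δfs and 210, 129 and 202 in Del3, with replicate 2 the lowest in each line, and its log2 fold change was 0.04 (standard error 0.30, interval -0.64 to 0.71). Of the summed RPKM of *Id1*, *Id2* and *Id3*, *Id2* made up 1.64% to 5.75%, *Id1* 48.5% to 58.0% and *Id3* 39.7% to 48.0%. The 2 highest shares of *Id2*, 4.46% and 5.75%, were those of the replicate 1 libraries, where *Id1* and *Id3* were lowest.

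Of the homeobox targets, *Msx1* overlapped between the lines and *Msx2* was the only member whose lines did not overlap. *Msx1* (chr5:38211724-38215822, minus strand) had 2312, 2453 and 2719 normalized counts in Evx1Δfs and 2016, 2941 and 2897 in Del3, and Del3 held both the lowest and the highest library. Its log2 fold change was 0.05 (standard error 0.23, interval -0.46 to 0.57). *Msx2* (chr13:53562250-53568443, minus strand) had 570, 553 and 543 normalized counts in Evx1Δfs, within a few percent of each other, and 613, 660 and 850 in Del3. All 3 Del3 libraries thus lay above all 3 Evx1Δfs libraries (p = 0.1 by a two-sided exact permutation test, and no smaller p can be reached with 3 against 3). Such a separation was found for 3.51% of all genes tested, against 1 of the 10 members. With Del3 higher it was 1.71% against 1 member, and with Del3 lower 1.8% against 0. The log2 fold change of *Msx2* was 0.33 (standard error 0.23, interval -0.18 to 0.85, limma, adjusted p = 1.00), and a limma fit blocked on the replicate number gave an unadjusted p of 0.0994. Within pairs the difference was 0.10, 0.25 and 0.64 on the log2 scale. Without Del3 replicate 3, the highest library, the log2 fold change of *Msx2* was 0.19.

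The inhibitors that BMP signalling induces also overlapped between the lines. *Smad6* (chr9:63800953-63869866, minus strand), an inhibitory SMAD, had 1410, 1597 and 1827 normalized counts in Evx1Δfs and 1291, 1910 and 2285 in Del3, with replicate 1 lowest in both. Its log2 fold change was 0.15 (standard error 0.26, interval -0.43 to 0.73). *Bambi* (chr18:3507955-3516402, plus strand), a pseudoreceptor without a kinase domain, was the least regular member, with 1086, 531 and 912 normalized counts in Evx1Δfs and 623, 726 and 770 in Del3. All 3 Del3 libraries fell within the range of the Evx1Δfs libraries, and the differences within pairs were -0.80, 0.45 and -0.24 on the log2 scale. The log2 fold change of *Bambi* was -0.20 (standard error 0.29, interval -0.84 to 0.45), and without Evx1Δfs replicate 1 it was 0.02.

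**Figure D2:**
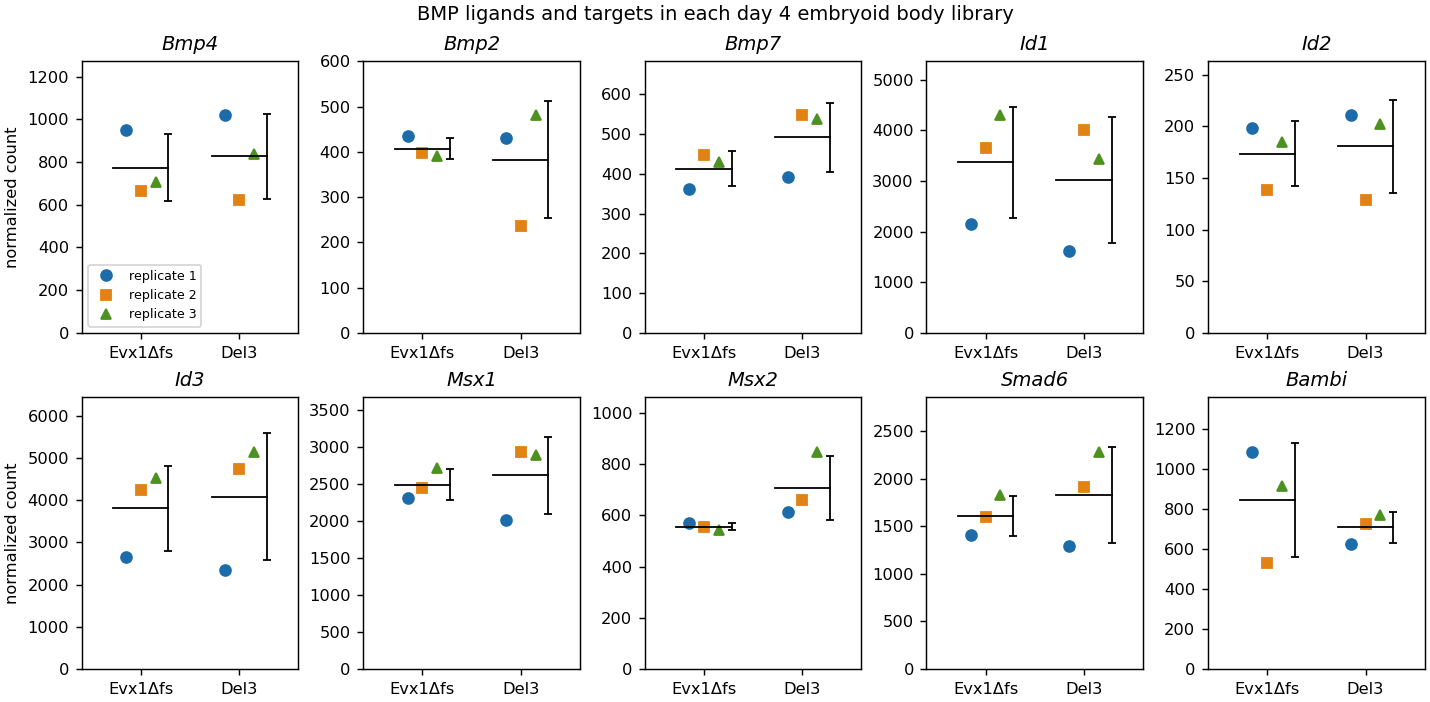
Normalized counts of each member in each library (axes from 0), with 1 colour and shape per replicate number, the mean of each line as a line and its SD (n = 3) as the bar beside it. Only in *Msx2* do the points of the lines stay apart (543 to 570 against 613 to 850), and *Id1* and *Id3* are lowest in replicate 1 of each line.

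In the comparison of the lines across all genes, 0.0155% of the genes tested, namely *Evx1* and *Evx1as*, passed an adjusted p of 0.05 (limma, p-values adjusted after Benjamini and Hochberg), and 0 of the 10 members passed it. At an unadjusted p under 0.05, limma counted 0 members against 1.03% of all genes. The count of members was also 0 at both levels by DESeq2's Wald test, which counted 3 genes with and 171 without adjustment among all genes tested, and by edgeR's quasi-likelihood test, which counted 2 and 144. In limma blocked on the replicate number the calls were 0 of 10 against 0.0233% (adjusted) and 0 of 10 against 4.62% (unadjusted). The members' log2 fold changes ran from -0.20 to 0.33 with a median of 0.06, and 7 were above 0, whereas the median over all genes was 0.0022 and 50.4% were above 0. That count rests on single libraries, since 8 of the 10 members changed sign when some 1 library was left out. For 9 of the 10 members the 95% interval excluded a 2-fold change both upwards and downwards, against 61.1% of all genes. The exception was *Id1*, whose lower bound was -1.02. With the block this held for 10 of 10, against 76.2%. These intervals bound the difference and do not show that the lines are alike.

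**Figure D3:**
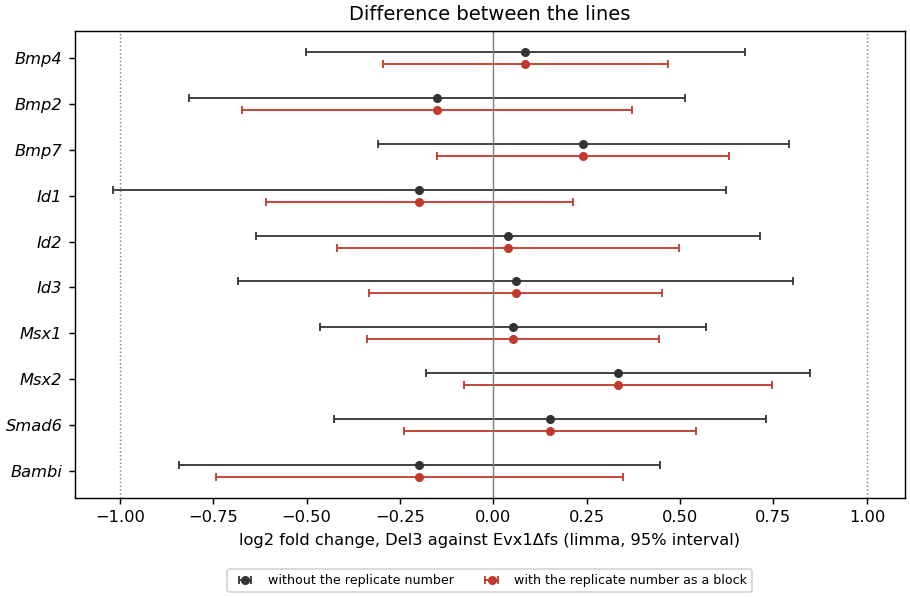
Log2 fold change of each member in Del3 against Evx1Δfs with its 95% interval by limma, without (dark) and with (red) the replicate number as a block, where dotted lines mark a 2-fold change. All 20 intervals cross 0, and the lower end of *Id1* at -1.02 is the only one beyond a dotted line.

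Most members varied more with the replicate number than with the line, and neither the ligands nor the targets moved in a single direction. Of the sum of squares of the log2 values over the 6 libraries, the part between replicate numbers was 96.2% for *Id2*, 96.0% for *Id3*, 90.7% for *Id1* and 90.4% for *Bmp4*. The median over all genes tested was 64.4%, and the median of the members was 76.8%. There were 3 replicate numbers and 2 lines, and this alone makes the part between replicate numbers the larger. *Msx2* was the exception with 16.1%, and there 57.3% lay between the lines, against a median of 6.70% over all genes. *Bmp7* had 65.0% between replicate numbers and 30.5% between the lines. *Bambi* had 57.2% in neither part. The whole spread of the members was not large, since the SD of the log2 values over the libraries was 0.56 for *Id1* and 0.48 for *Id3* but 0.21 to 0.37 for the others, beside a median of 0.37 over all genes.

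**Figure D4:**
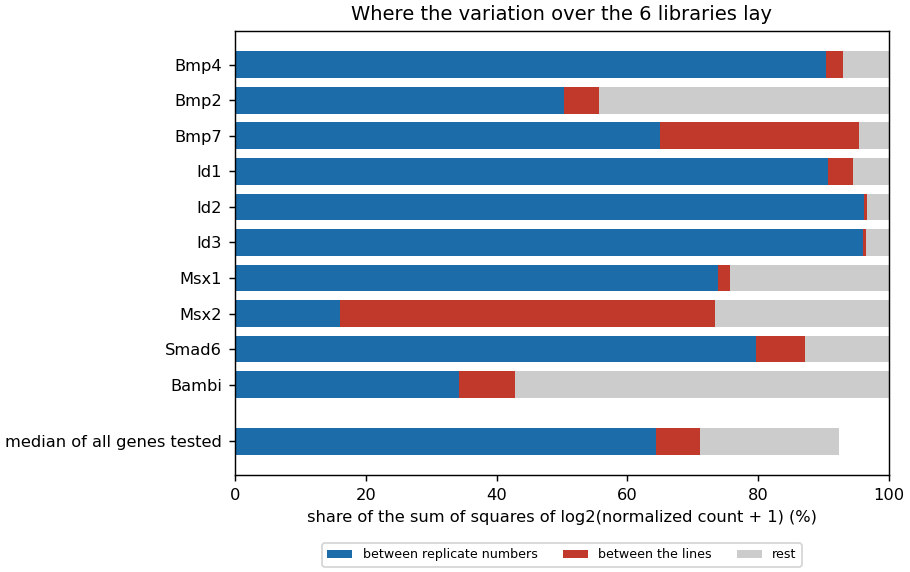
Percentage of the sum of squares, taken on log2(normalized count + 1) over the 6 libraries that lay between replicate numbers, between the lines and in neither, for each member, with the medians over all genes tested at the bottom, which need not sum to 100. The part between replicate numbers is 90.4% or more for *Bmp4*, *Id1*, *Id2* and *Id3*, and *Msx2* has the largest part between the lines.

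A test of the replicate number, with the line in the model, was added after these values had been seen. By limma's moderated F test 4.24% of all genes differed between replicate numbers at an adjusted p under 0.05, and 1 of the 10 members did, namely *Id1* (adjusted p = 0.0477). *Id3* had an adjusted p of 0.0588 by limma, and by DESeq2's likelihood ratio test both passed (adjusted p = 0.0020 for *Id1* and 0.0066 for *Id3*), among 1298 genes in all. By edgeR's quasi-likelihood test and with TMM factors *Id1* did not pass, with an adjusted p of 0.0539 and 0.0535. Without the replicate 1 library of Evx1Δfs or of Del3 no member passed, and the adjusted p of *Id1* was 0.310 and 0.721. With any 1 of the other 4 libraries left out, *Id1* and *Id3* passed by limma, in fits that called 1500 to 3247 of the 12891 genes. Without adjustment, 3 of the 10 members had a p under 0.05, the third being *Bmp4*, against 27.7% of all genes, so the number of members was close to the background.

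In replicate 1 the mean log2 value of both lines was lower than in the other replicates by 1.03 for *Id1*, whose fold change was 2.05, and by 0.90 for *Id3*, with a fold change of 1.86. *Bmp4*, in contrast, was 0.49 higher there, a fold change of 1.40, and *Id2* was 0.34 higher. The direction did not follow the roles of the genes throughout. The ligand *Bmp2* was 0.25 higher in replicate 1, as *Bmp4* was, but the ligand *Bmp7* was lower (-0.37). Of the other targets, *Msx1* (-0.35), *Smad6* (-0.49) and *Msx2* (-0.12) were lower, as *Id1* and *Id3* were, while *Id2* was higher. *Bambi* moved in opposite directions in the lines, being higher in replicate 1 of Evx1Δfs (0.64) and lower in that of Del3 (-0.26), and so did *Msx2* (0.06 and -0.29). Within the lines the lower level of *Id1* in replicate 1 was -0.88 in Evx1Δfs and -1.19 in Del3, and the higher level of *Bmp4* was 0.48 and 0.49. Both replicate 1 libraries were below all others in 5 of the 10 members (*Bmp7*, *Id1*, *Id3*, *Msx1* and *Smad6*), which was so for 22.7% of all genes, and above all others in 1 (*Bmp4*), which was so for 22.2%. Both replicate 2 libraries were the lowest in *Bmp4* and *Id2*, against 13.3% of all genes. In 0 members were both replicate 2 libraries the highest (10.8% of all genes), or both replicate 3 libraries the highest (6.47%) or the lowest (5.35%). Replicate 1 was singled out after its values were seen, and no test was made of these counts.

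Other properties of the libraries moved with replicate 1 as well. The replicate 1 libraries had 12231851 and 15699124 reads, and the other 4 had 9024579 to 9802928. The 8 markers of the streak and nascent mesoderm summed to 6605 and 7958 normalized counts there and to 7981 to 9772 in the others, and the 7 markers of anterior streak and definitive endoderm to 3776 and 4613 against 4714 to 5546. The summed level of the 5 listed neurectoderm markers was 1822 and 2002 against 2002 to 2788, so that in Del3 replicates 1 and 3 were level. Most of that sum was *Nes*, with a mean of 1802 over the 6 libraries, and only 2 of the 5 genes passed the filter on low counts. Sums of the other lists overlapped, among them the haemangioblast and lateral mesoderm markers (8527 and 8764 against 6498 to 10638) and the trophoblast markers (7674 and 7696 against 6644 to 9472). *Hand1*, with a mean of 3385, was the highest gene of both these lists, so their sums are not independent. The trophoblast list also shares *Eomes* with the streak list, so its sum does not measure trophoblast alone. The part of these library properties in the levels of the *Id* genes and of *Bmp4* was not tested.

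Around the members, 54 further genes of the BMP pathway were listed from general knowledge, of which 47 were in the table and 42 were tested. By limma 0 of the 42 had an adjusted p under 0.05, in either direction, with or without the replicate number as a block, and 0 had an unadjusted p under 0.05 without it. Among the other ligands, *Gdf3*, a ligand of pluripotent cells, was the most abundant with 185 ± 78.3 normalized counts in Evx1Δfs and 167 ± 97.6 in Del3, and had a log2 fold change of -0.18 (standard error 0.46). *Bmp5* had the largest difference of that list (0.42, standard error 0.47), and *Bmp3*, *Bmp10*, *Bmp15*, *Gdf2* and *Gdf5* were not listed. For the SMADs and their regulators the median log2 fold change was 0.04 over 8 genes. *Smad1*, a transducer of BMP signals, had 1125 to 1565 normalized counts and a log2 fold change of -0.08 (standard error 0.22), and *Zfp423*, a zinc finger cofactor of SMADs, had the largest, 0.46 (standard error 0.35). The secreted antagonists and modulators had a median of 0.05 over 13 tested genes, with *Fstl1* the most abundant (415 to 1039 normalized counts, log2 fold change -0.22). *Grem1*, an antagonist that binds BMPs, had the largest difference, 0.58 (standard error 0.60), at only 4.69 to 29.0 normalized counts. Of the other target genes, *Hand1*, a bHLH factor of lateral and extraembryonic mesoderm, was both the most abundant and the most different, with 3893, 2562 and 1981 normalized counts in Evx1Δfs and 4518, 2409 and 4946 in Del3 (log2 fold change 0.48, standard error 0.34). The median of that list was 0.26 over 9 tested genes.

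The 7 receptor genes were the list with the highest median. All 7 were above 0 in Del3 against Evx1Δfs, with log2 fold changes from 0.02 to 1.00 and a median of 0.59, but none passed the test, and in each of them the lines overlapped. *Bmpr2*, the type II receptor most specific to BMPs, had 38.9, 19.9 and 15.4 normalized counts in Evx1Δfs and 112, 33.7 and 26.7 in Del3, with a log2 fold change of 1.00 (standard error 0.58, interval -0.28 to 2.27). *Acvr2b*, a type II receptor shared with activins, was the most abundant, at 271 to 464, with a log2 fold change of 0.16 (standard error 0.28). *Bmpr1a*, a type I receptor, had 405, 65.6 and 139 normalized counts in Evx1Δfs and 531, 166 and 222 in Del3, and was higher in Del3 in each pair (0.39, 1.33 and 0.67, log2 fold change 0.80). With the replicate number as a block, *Bmpr1a*, *Bmpr2* and *Acvr2a* had unadjusted p-values of 0.0087, 0.0166 and 0.0203 by limma, and adjusted p-values of 0.788, 0.890 and 0.931. They were 3 of the 42 pathway genes, and 4.62% of all genes had an unadjusted p under 0.05 in that fit. *Bmpr1a* was also the only one of the 42 genes that differed between replicate numbers (limma, adjusted p = 0.0244, against 4.24% of all genes), with both replicate 1 libraries highest. The median of the receptors was 0.20, 0.43 and 0.67 in replicates 1 to 3, with 7, 5 and 7 of the 7 genes higher in Del3, and without single libraries it ran from 0.31 (without Del3 replicate 1) to 0.79 (without Evx1Δfs replicate 1), with 6 or 7 of the 7 genes above 0 in each of these fits. The log2 fold change of all genes moved with exon length: its median was -0.10 in the 3033 genes with the shortest exon length and 0.10 in the 3033 with the longest. The receptors have 1753 to 6351 bases of exon. Genes within that range had a median of 0.0005, with 50.2% above 0, and genes at least as long as the median receptor had a median of 0.09. The part of length in the receptors' values was not tested.

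**Figure D5:**
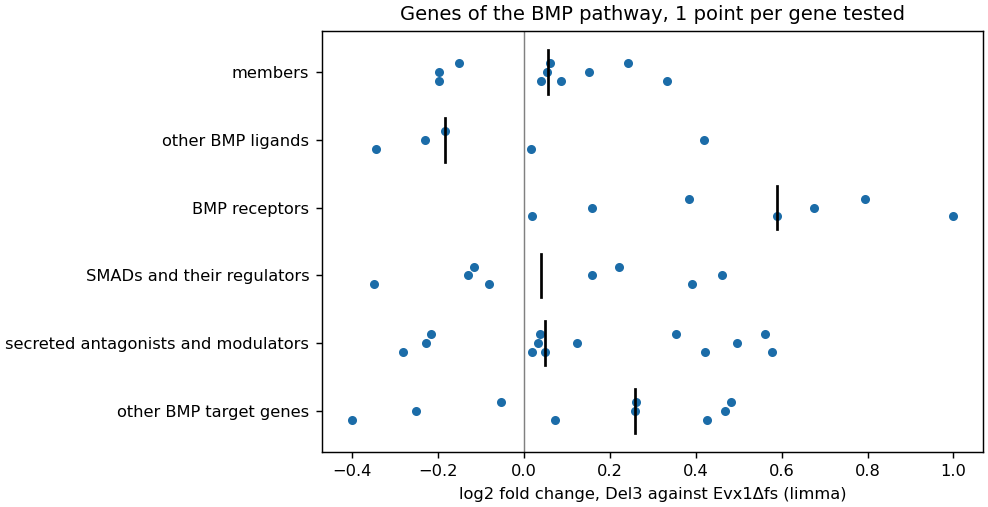
Log2 fold change in Del3 against Evx1Δfs by limma for the 10 members and for the 42 tested genes of the 5 further lists, 1 point per gene, with the median of each list as a bar (points are shifted vertically for legibility). The receptors lie from 0.02 to 1.00 with their median at 0.59, while the members lie from -0.20 to 0.33.

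The genes whose log2 values, centred on their means, lay closest to those of *Bmp4* over the 6 libraries were *Clint1* (root mean square distance 0.05), *Sel1l* (0.05) and *Sirt7* (0.06). Of the other members, *Id2* was the closest to *Bmp4*, at rank 99 of all genes tested with a distance of 0.13, followed by *Bmp2* (0.24, rank 1508). *Id3* (0.66, rank 11219) and *Id1* (0.76, rank 11981) were the members farthest from *Bmp4*. These distances rest on 6 libraries and are given as a description.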

How the data were processed

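mRNA-seq libraries of day 4 EBs were analysed, 3 of Evx1Δfs and 3 of Del3. According to the study's methods, the authors aligned the reads, sequenced on an Ion Proton, to mm9 using TopHat2 followed by TMAP, counted genes in HTSeq and tested them in DESeq2, both at standard settings. The signal values deposited by the authors are gene counts divided by a size factor per library. Dividing a library's values by the lowest value above 0 gave whole numbers for 100% of them (tolerance 0.01), and these recovered reads were used for count tests.

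Lines were compared with limma (version 3.58.1, R 4.3.3; eBayes with trend) on log2(normalized count + 1), so fold changes of low genes are understated, over the genes kept by filterByExpr of edgeR (version 4.0.16, minimum count 10). Adjustment (Benjamini-Hochberg) was over all genes tested, with a threshold of 0.05. DESeq2 (version 1.42.0) and edgeR were run on the recovered reads as alternatives. The limma fits (also with the block and for the replicate number) and the unblocked DESeq2 and edgeR fits were tested on simulated data. Exon lengths are unions of GENCODE vM1 exons (NCBIM37), matched by symbol for 14262 of the 15266 genes. RefSeq promoter windows were matched by symbol for 6 of the 10 members. No window was used for *Bmp2*, *Bmp7*, *Id1* and *Bambi*, and *Bambi* lies on chromosome 18, which was left out when windows of members were taken.

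The series' design text says that each replicate was a side-by-side differentiation of the lines on its own day, so equal replicate numbers were taken to mark the same day, which the labels do not state outright. Deviations from the mean of the line correlated across genes at 0.74, 0.32 and -0.05 for replicates 1, 2 and 3. Between libraries of different number the correlation ran from -0.66 to 0.42, with 0.42 for Evx1Δfs replicate 3 and Del3 replicate 2 and 0.25 for Evx1Δfs replicate 2 and Del3 replicate 3, so only for replicate 1 is the pairing borne out for both libraries. The block changed no call among the members. No pair of replicates was alike within sampling noise. Members, gene lists and tests were chosen with earlier results of these data known. Named genes were the members, *Evx1* and *Evx1as*, the most abundant and the most changed tested gene of each pathway list and the 3 genes nearest to *Bmp4*. *Bmpr1a*, *Acvr2a* and, for their part in the marker sums, *Nes*, *Dnmt3b* and *Eomes* were named after their values were seen.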

Additional observations from a re-analysis of the deposited data

How the results depend on the processing

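These comparisons rest on 3 replicates per line, of 1 clone for Evx1Δfs and with no clone number given for Del3. Genes with few reads, such as *Grem1* (4 to 25 reads per library), had wide errors. Between the lines 2 genes differed. Under 15 alternatives the replicate block in DESeq2 gave 9 genes and the others 2 or 3 (2 in each fit that left out 1 library). The count of members was 0 under all 15. No member's direction changed under the 9 alternatives that kept all libraries. When single libraries were left out, *Bmp7* (0.15 to 0.40) and *Msx2* (0.19 to 0.43) kept their direction. The log2 fold change changed sign for *Bmp4* (-0.079 to 0.28, without Evx1Δfs replicate 2 or Del3 replicate 1), *Bmp2* (-0.35 to 0.16, Del3 replicate 2), *Id1* (-0.49 to 0.20, Evx1Δfs replicate 3 or Del3 replicate 1), *Id2* (-0.12 to 0.26, Evx1Δfs replicate 2, Del3 replicate 1 or 3), *Id3* and *Msx1* (-0.18 to 0.42 and -0.042 to 0.23, Evx1Δfs replicate 1, Del3 replicate 2 or 3), *Smad6* (-0.029 to 0.38, Del3 replicate 3) and *Bambi* (-0.50 to 0.016, Evx1Δfs replicate 1).

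The test of replicate numbers, added after the data were seen, gave 546 genes, 334 with TMM factors, 1298 with DESeq2's likelihood ratio test and 194 to 3247 without single libraries. For the members it gave 1, 0 with TMM factors or edgeR's quasi-likelihood test, 2 with DESeq2's and 0 to 2 without single libraries. The cause was not tested.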
